A study of Mus musculus with 12 samples.

Results

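Calb1, Car8 and Necab1 encode proteins of neuronal calcium handling, and their rows were read from a table of 56923 Ensembl gene identifiers by 12 RNA-seq libraries. The 3 rows were chosen by matching the identifiers to the symbols in the GENCODE M21 annotation of GRCm38, and all 3 were found. The libraries came from brain sections of wild-type mice held for 5 hours in artificial cerebrospinal fluid (aCSF, 6 libraries) or in that fluid plus L-fucose (6 libraries), a sugar found on many glycoproteins. Every group had the wild-type genotype and the 5 hours of incubation, and no untreated, freshly dissected tissue was analysed here. The sources used here do not give the brain region or the strain, age and sex of the mice. Libraries are named by group and replicate number. The same numbers recur in both groups, and the labels do not say whether equal numbers mark the same mouse. Nothing in the labels says whether they came from separate animals, so p-values measure only the spread between these libraries, which may be technical.

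Calcium ions carry signals in neurons, where a brief rise in concentration triggers transmitter release, gates channels and changes transcription. Cells shape such rises with buffer proteins that bind the ion, with sensors that change their partners when they bind it, and with regulators of the stores in the endoplasmic reticulum. Calb1 encodes calbindin, a fast buffer with EF-hand loops (the helix-loop-helix fold that holds a calcium ion). It is a classic marker of cerebellar Purkinje cells and is also made by dentate granule cells, striatal projection neurons and subsets of interneurons. Car8 encodes a carbonic anhydrase-related protein without the enzymatic activity. This protein binds the inositol trisphosphate receptor of the endoplasmic reticulum and lowers its affinity for inositol trisphosphate. Car8 is abundant in Purkinje cells, and mice that lack it are ataxic. Necab1 encodes a neuronal protein with an EF-hand region near its amino terminus.

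All 3 genes lie on chromosome 4 in GRCm38. Car8 (ENSMUSG00000041261) spans 8143362 to 8239041 on the minus strand, Necab1 (ENSMUSG00000040536) spans 14952245 to 15149794 on the minus strand, and Calb1 (ENSMUSG00000028222) spans 15881264 to 15908064 on the plus strand. Over much of the table, row levels do not follow the exons of the genes that the rows are named for, so the place of each row was checked before its name was used. Windows of 80 neighbouring rows were displaced along the genome by up to 600 kb either way, and the displacement was sought at which their levels best matched protein-coding exons. Of 2547 windows, 170 fitted best within 1000 bp of no displacement. Rows covered by such windows alone, in stretches of at least 120 rows, are called in register here. They numbered 1400 and included the stretch of chromosome 4 from 3.10 to 40.97 Mb that holds the 3 genes. All 3 windows over Car8 and all 4 windows over Necab1 and Calb1 fitted best there, with correlations at no displacement of 0.726 to 0.834 and of 0.769 to 0.86. These correlations chose the region, so they are no separate check of the names.

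Exons of Calb1 and Car8 shared 0 bases with other annotated genes. Necab1 shared 410 of its 5237 exonic bases, or 7.83%, with Gm11837, a gene on the opposite strand. The sources used here do not give the strand setting of the counting, so reads in the shared bases cannot be told apart. The row of Gm11837 held a mean of 39.2 normalized reads, against 2035 for Necab1. Normalized reads are read counts after division by a size factor, 1 for each library, and they are the unit of all levels below unless another is named.

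The shallowest library was aCSF 4 with 9191687 counted reads, and the deepest was L-fucose 2 with 18563078. aCSF 5 and aCSF 6 stood apart from the rest. They had the highest mitochondrial shares of counted reads, 41.9% and 44.8% against 27.6% to 40.5% in the other libraries, and the smallest numbers of detected rows, 14340 and 14856, where each other library had at least 16514. Results that rest on these libraries are given with and without them. In bulk tissue, fewer cells of a type and less RNA per cell cannot be told apart.

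Calb1 was the most abundant of the 3 genes. Its level over the 12 libraries was 4445 ± 462 normalized reads (SD), which exceeded that of 97.0% of the 10787 rows with enough signal to be tested. Only 457 of those rows were in register, and among them Calb1 ranked 35th by level. In aCSF the lowest library had 4085, the median was 4358 and the highest had 5319. In L-fucose the corresponding values were 3938, 4176 and 5283. The groups overlapped over most of their range. The highest library was aCSF 5 in one group and L-fucose 2 in the other. The coefficient of variation was 10.1% in aCSF and 11.5% in L-fucose. Calb1 was counted with 3342 to 8687 reads per library, so counting error accounted for 1.95% of the variance within groups, and nearly all of the spread lay between libraries.

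Car8 was much lower, at 274 ± 40.78 normalized reads over the 12 libraries, and ranked 285th of the 457 tested rows in register. In aCSF it ran from 246 through a median of 300.1 to 349. In L-fucose it ran from 224 through a median of 242 to 301. L-fucose 1, 2 and 3 lay below all aCSF libraries at 224, 225 and 225, while L-fucose 4, 5 and 6 at 258, 279 and 301 fell within the aCSF range. The coefficient of variation was 12.8% in aCSF and 13.0% in L-fucose. With 217 to 370 reads per library, counting error made up 22% of the variance within groups.

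Necab1 lay between them, at 2035 ± 326 normalized reads, and ranked 87th of the 457 tested rows in register. Its aCSF libraries ran from 1648 through a median of 2129 to 2729, and its L-fucose libraries from 1789 through 1856 to 2387. The whole L-fucose range lay inside the aCSF range. aCSF 1 and aCSF 4 were the 2 lowest of the 12 libraries, and aCSF 5 was the highest. The coefficient of variation was 19.3% in aCSF and 11.97% in L-fucose, and counting error (1438 to 2951 reads per library) was 1.94% of the variance within groups. A difference in spread between the groups was not tested.

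**Figure D1:**
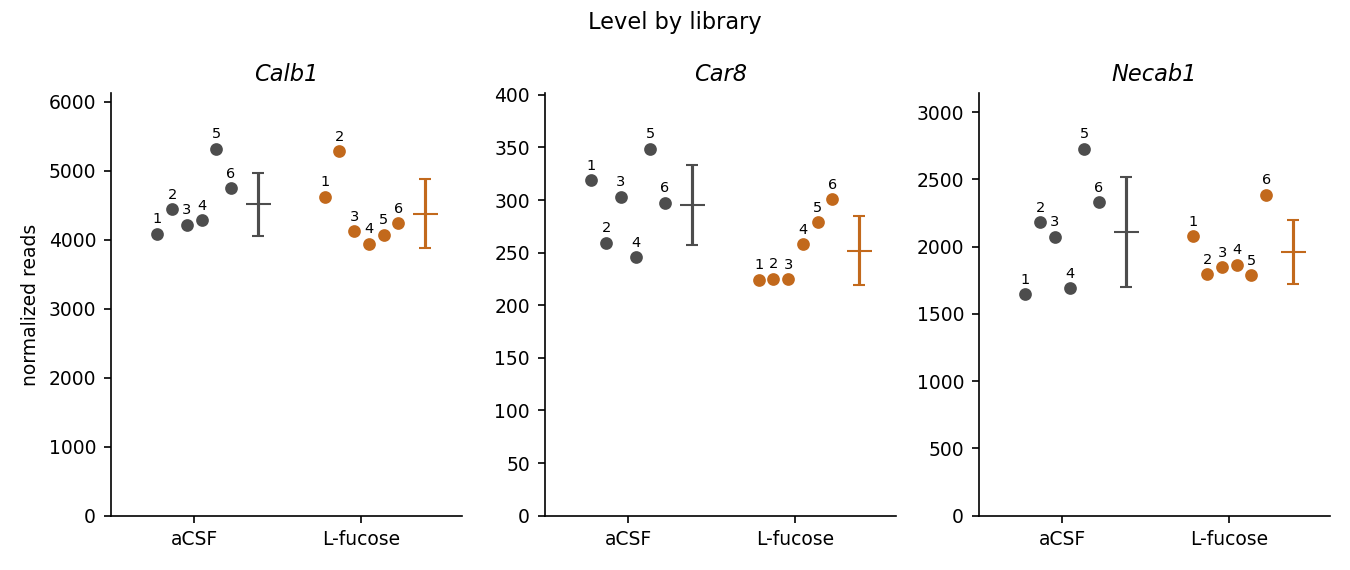
Normalized reads of Calb1, Car8 and Necab1 in each library, on axes that start at 0. Points are libraries numbered by replicate, grey for aCSF and orange for L-fucose, and the bar beside each group is its mean ± SD (n = 6); the groups overlap for each gene, and aCSF 5 is the highest library of all 3 genes.

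aCSF 5 held the highest value of all 3 genes, and aCSF 6 ranked 3 of 12 for Calb1 and Necab1 and 5 of 12 for Car8. This order depended on the scaling. As RPM, reads scaled to the total of counted reads of the library, Calb1 was highest in L-fucose 2 at 468, with aCSF 5 ranked 5 of 12 at 412. On that scale Car8 was highest in aCSF 1 at 30.2, with aCSF 5 ranked 3 of 12 at 27.0. Necab1 stayed highest in aCSF 5, at 211. For Car8 on that scale, 6 of 6 L-fucose libraries had less than the median of aCSF, against 5 of 6 in normalized reads.

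Per kb of exon, the levels of the genes can be compared with each other. Calb1 had 917 ± 95.3 normalized reads per kb, Necab1 389 ± 62.3 and Car8 71.0 ± 10.6 (SD, n = 12). The 12 values of Calb1 lay between 813 and 1098, those of Necab1 between 315 and 521 and those of Car8 between 58.2 and 90.6, without overlap. Calb1 was 13.2 ± 2.44 times as high as Car8 per kb, from 10.2 to 18.7, and the highest ratio was in L-fucose 2. Against Necab1, Calb1 was 2.40 ± 0.339 times as high per kb, from 1.92 to 3.18. Car8 was 0.185 ± 0.0304 times the level of Necab1. Exon lengths were taken over all annotated transcripts, so these levels move if the brain uses shorter forms.

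The variation of the 3 genes between libraries was not large for the table. The residual SD of log2 values within groups was 0.149 for Calb1, 0.185 for Car8 and 0.228 for Necab1. These placed them at the 5.71th, 12.3th and 21.1th percentile of all tested rows. Most of those rows were not in register, so the percentiles describe the table and not genes known by name. High rows vary less than low ones, so each gene was also set beside rows within 1 log2 unit of its own level. Among such rows Calb1 was at the 36.8th percentile of 576, Car8 at the 9.17th of 2551 and Necab1 at the 75.6th of 1133. By this measure Necab1 was more variable than most rows of its level in the whole table, in register or not, and Car8 less variable. These SDs include aCSF 5, which lay 0.39 log2 units above its group mean for Necab1. The biological coefficient of variation of edgeR, which leaves out counting error, placed Car8 above Necab1. It was 17.6% for Car8, 15.4% for Necab1 and 12.8% for Calb1, at the 21.8th, 13.7th and 3.45th percentile of 10771 rows of any level.

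The comparison of L-fucose with aCSF asked whether the sugar goes with a different level of these transcripts after 5 hours. None of the 3 genes passed the test. Mean Car8 was 296 ± 37.96 in aCSF and 252 ± 32.8 in L-fucose, with SD over 6 libraries. The log2 fold change was -0.23 (standard error 0.14), and the 95% confidence interval ran from -0.52 to 0.06. Its limma p was 0.1138 and its Benjamini-Hochberg adjusted p over all tested rows was 0.851. Of the L-fucose libraries, 5 of 6 lay below the aCSF median. Mean Necab1 was 2109.9 ± 407 in aCSF and 1960.3 ± 235 in L-fucose. Its log2 fold change was -0.09 (interval -0.34 to 0.16, limma adjusted p 0.935), also with 5 of 6 libraries below the aCSF median. Mean Calb1 was 4513 ± 455 in aCSF and 4378 ± 501 in L-fucose. Its log2 fold change was -0.05 (interval -0.24 to 0.15, limma adjusted p 0.958), with 4 of 6 below.

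The intervals state which changes remain compatible with the 12 libraries. For Calb1 they covered changes from -15.2% to 10.7%, for Necab1 from -20.9% to 11.4% and for Car8 from -30.2% to 4.24%. Larger changes lay outside the 95% intervals. Which sizes of change these libraries could have detected was not computed. Over the whole table, limma called 0 of 10787 rows, a percentage of 0, with the smallest adjusted p at 0.498. At an unadjusted p under 0.05 it called 643 rows, or 5.96%, and none of the 3 genes was among them. Groups that did not overlap were found for 0 of the 3 genes and for 31 of all tested rows, or 0.287%. edgeR with TMM factors also called 0 rows (604 at an unadjusted p under 0.05), and DESeq2 called 1, which was none of the 3. Without aCSF 5 and 6 the fold changes were 0.03 for Calb1, 0.05 for Necab1 and -0.16 for Car8, so the negative sign of Calb1 and Necab1 rested on those libraries. The limma adjusted p of the 3 genes without them lay between 0.684 and 0.904.

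Other genes of calcium handling were taken from a list of 204, of which 17 had a row in register and 15 of these were tested. The 2 untested were Ppp3r2, a calcineurin regulatory subunit, and Cngb3, a subunit of a cyclic nucleotide-gated channel, at means of 5.54 and 2.43 normalized reads. Of the 15 tested genes, the 3 above included, 0 were called higher and 0 lower by limma, beside the 0% called in the whole table. All 15 fold changes were negative, from -0.80 to -0.03 with a median of -0.14. Negative values also made up 61.5% of the 457 tested rows in register (median -0.05) and 48.0% of all tested rows (median 0.01). Without aCSF 5 and 6, 10 of 15 were negative with a median of -0.08, and without aCSF 5 alone 12 were negative with a median of -0.12. The median was -0.08 without L-fucose 4 and also without L-fucose 5, with 14 negative in both. These genes were measured in the same libraries, so they are not independent observations. The list was also written with earlier results of these data known, so the share of negative values carries no test.

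Among EF-hand proteins, Ncald, a neuronal calcium sensor of the visinin-like family, had 17980.9 ± 952 normalized reads over the 12 libraries and a log2 fold change of -0.03 (interval -0.19 to 0.12). It was the gene of the list with the highest level per kb, at 2095 ± 111, and all its libraries lay above those of Calb1. Calu, a calcium-binding protein of the secretory pathway, had 2897 ± 230 and a fold change of -0.11 (-0.28 to 0.07). Slc25a13, the mitochondrial aspartate-glutamate carrier that calcium activates, had 98.2 ± 35.8 and -0.34 (-1.18 to 0.49). Its lowest library was L-fucose 5, at 3.82 normalized reads per kb, and without that library the fold change was 0.13. With all libraries, edgeR with TMM factors and DESeq2 both gave -0.09.

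Like Car8, the genes of the stores in the endoplasmic reticulum had intervals that included 0. Asph, whose locus also encodes the junctin and junctate proteins of calcium stores, had means of 2711 ± 320 in aCSF and 2421 ± 178 in L-fucose. Its log2 fold change was -0.16 (-0.35 to 0.04). Erp44, a chaperone that binds the inositol trisphosphate receptor, was at -0.08 (-0.33 to 0.17). Tmem38b, a potassium channel of the store membrane that supports calcium release, was at -0.03 (-0.30 to 0.23). Erp44 and Tmem38b turned positive without aCSF 5 and 6, at 0.09 and 0.06, and Asph was then at -0.07.

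Of the genes that govern calcium entry, Gem, a small GTPase that inhibits voltage-gated calcium channels, had means of 2021 ± 610 in aCSF and 1615 ± 313 in L-fucose. Its log2 fold change was -0.27 (-0.67 to 0.13), and all 6 L-fucose libraries lay below the aCSF median. Grin3a, an NMDA receptor subunit, was at -0.14 (-0.40 to 0.11). Without aCSF 2 alone Gem was at -0.48 and Grin3a at -0.06, and without L-fucose 5 Grin3a was at -0.08. Cpne3 and Cadps2, proteins with C2 domains that bind membranes or act in vesicle priming, were at -0.18 (-0.43 to 0.06) and -0.06 (-0.27 to 0.15). Calcr, the calcitonin receptor, was at -0.18 with an interval from -1.56 to 1.20, and it ran from 7.07 to 144 normalized reads.

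Capsl, a calcyphosine-like EF-hand protein, was the sole gene of the 15 with an interval that excluded 0, or an unadjusted p under 0.05. Such a p was found for 9.85% of tested rows in register and 5.96% of all tested rows, so 1 of 15 is near the background. Its means were 114 ± 29.9 in aCSF and 67.6 ± 25.7 in L-fucose, and its log2 fold change was -0.80 (-1.37 to -0.23). It did not pass the adjusted threshold (limma adjusted p 0.827). Capsl is known from ciliated cells rather than from neurons, and it stands on the ependymal marker list with Spef2, Cfap206 and Dnah5, genes of the ciliary axoneme, which were at -1.30, -0.76 and -0.55. The intervals of Spef2, Cfap206 and Dnah5 ran from -2.06 to -0.53, from -1.22 to -0.30 and from -1.02 to -0.08. Of 6 ependymal markers, 4 were in register, 0 of these were at 0 in every library and 0 passed limma. Their summed level ran from 383 to 560 normalized reads in aCSF and from 213 to 339 in L-fucose. How often sums of other rows separate the groups was not computed, and the list was chosen with earlier results of these data known. The separation of the sums is therefore a description and carries no test. Capsl itself overlapped between the groups. The part of ependymal cells in the value of Capsl was not tested.

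**Figure D2:**
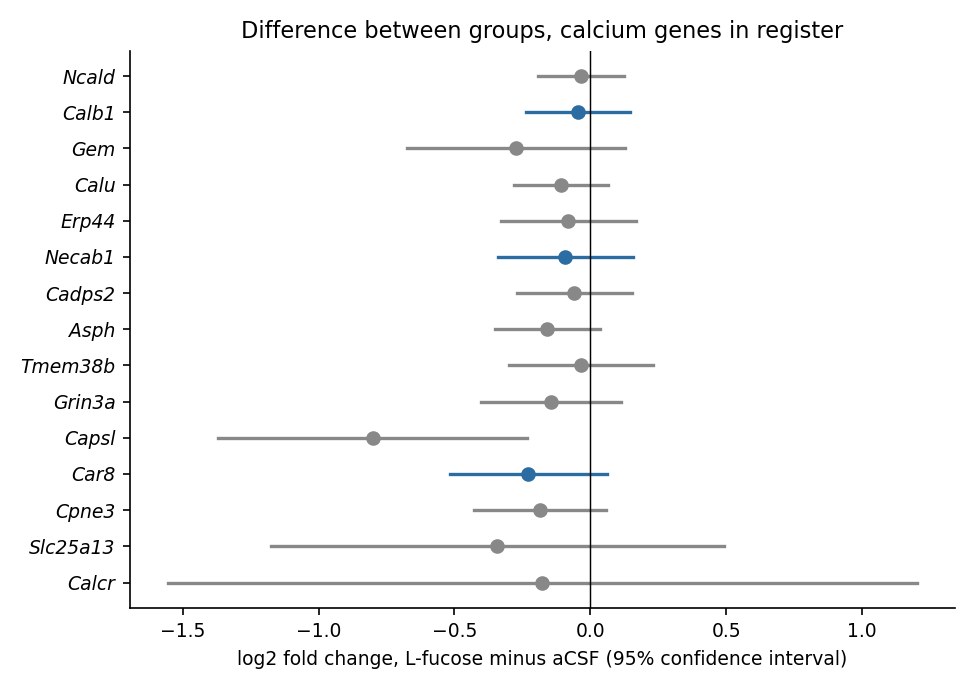
Log2 fold change, L-fucose minus aCSF, of the 15 tested calcium genes in register, ordered by level per kb from the top. Points are limma estimates and lines 95% confidence intervals, blue for Calb1, Car8 and Necab1 and grey for the others; all points lie left of 0 and every interval but that of Capsl crosses it.

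Ordered by level per kb, the list began with Ncald at 2095 and Calb1 at 917, and ended with Slc25a13 at 25.9 and Calcr at 19.4. Calb1 could not be placed above the next gene, Gem, at 864 ± 242 per kb, since their libraries overlapped. Necab1 overlapped the gene above it, Erp44, at 399.5 ± 62.0, but not the gene below it, Cadps2, at 207 ± 23.3. Car8 at 71.0 overlapped Capsl above it and Cpne3 below it, at 95.9 ± 38.1 and 60.6 ± 6.92.

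**Figure D3:**
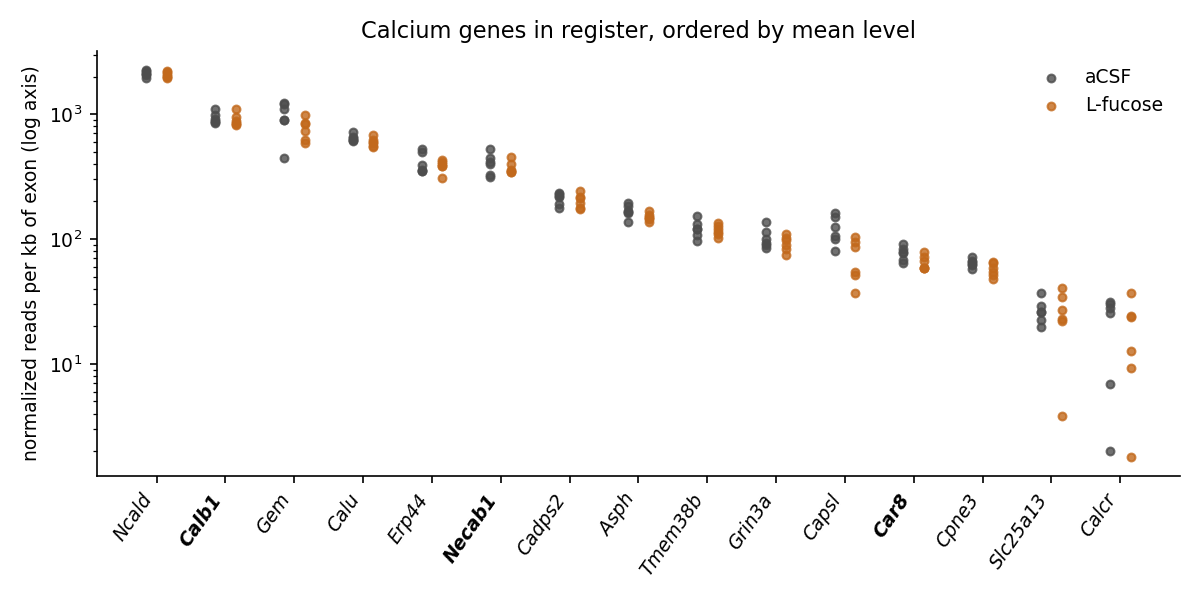
Normalized reads per kb of exon, on a log axis, for the 15 tested calcium genes in register in the order of their mean. Each point is 1 library, grey for aCSF and orange for L-fucose, and bold names are Calb1, Car8 and Necab1; the 2 groups of points lie at the same height for most genes, with Capsl lower in L-fucose.

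Co-variation of the 3 genes over the libraries was examined pair by pair. Correlations were computed on log2 values with the mean of each group removed, for 3 pairs over all 12 libraries and within each group, or 9 in all. Calb1 and Necab1 had a Pearson r of 0.485 (permutation p = 0.119, 0.231 adjusted over the 3 pairs) and a Spearman rho of 0.531 (permutation p = 0.0827, 0.248 adjusted). Car8 and Necab1 had an r of 0.463 (permutation p = 0.154, adjusted 0.231) and a rho of 0.273 (0.419, adjusted 0.54). Calb1 and Car8, both markers of Purkinje cells, had an r of -0.0489 (permutation p = 0.885, adjusted 0.885) and a rho of -0.203 (0.54, adjusted 0.54). None of the 3 passed, which does not show that the genes vary independently. Scaled to all counted reads, the r were 0.204 for Calb1 and Necab1, 0.124 for Car8 and Necab1 and -0.104 for Calb1 and Car8.

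Leaving out the 2 libraries farthest from the median of the first gene gave an r of 0.662 for Calb1 and Necab1 (without aCSF 5 and L-fucose 2), 0.343 for Car8 and Necab1 (without aCSF 5 and L-fucose 1) and -0.296 for Calb1 and Car8 (without aCSF 5 and L-fucose 2). Without aCSF 5 and 6 the 3 values were 0.062, 0.218 and -0.521. The value of Calb1 and Necab1 thus depended on single libraries. It was 0.222 without aCSF 5 alone and 0.461 without aCSF 6 alone. L-fucose 2 was high in Calb1 and below its group mean in Necab1. Without L-fucose 2 alone the r of Calb1 and Necab1 was 0.803, the highest value with a single library left out. That library was singled out after its values were seen, so no p-value is given for its removal.

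Within aCSF alone, Calb1 and Necab1 had an r of 0.895 (exact permutation p = 0.0111, 0.0333 adjusted over the 3 pairs and 0.1 over all 9 correlations) and a rho of 0.943 (exact permutation p = 0.0167, 0.15 over all 9). aCSF 5 and 6 were the 2 highest of that group for both genes and aCSF 1 and 4 the 2 lowest for Necab1. With 4 libraries left after those 2 are removed, no value is given within aCSF without them. Within L-fucose the same pair had an r of -0.0742 (exact permutation p = 0.885) and a rho of 0.143 (0.803). The difference between the groups in this correlation was not tested. Calb1 and Car8 had an r of 0.479 within aCSF and -0.527 within L-fucose (exact permutation p = 0.328 and 0.282), and Car8 and Necab1 had 0.479 and 0.475 (0.339 and 0.403).

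**Figure D4:**
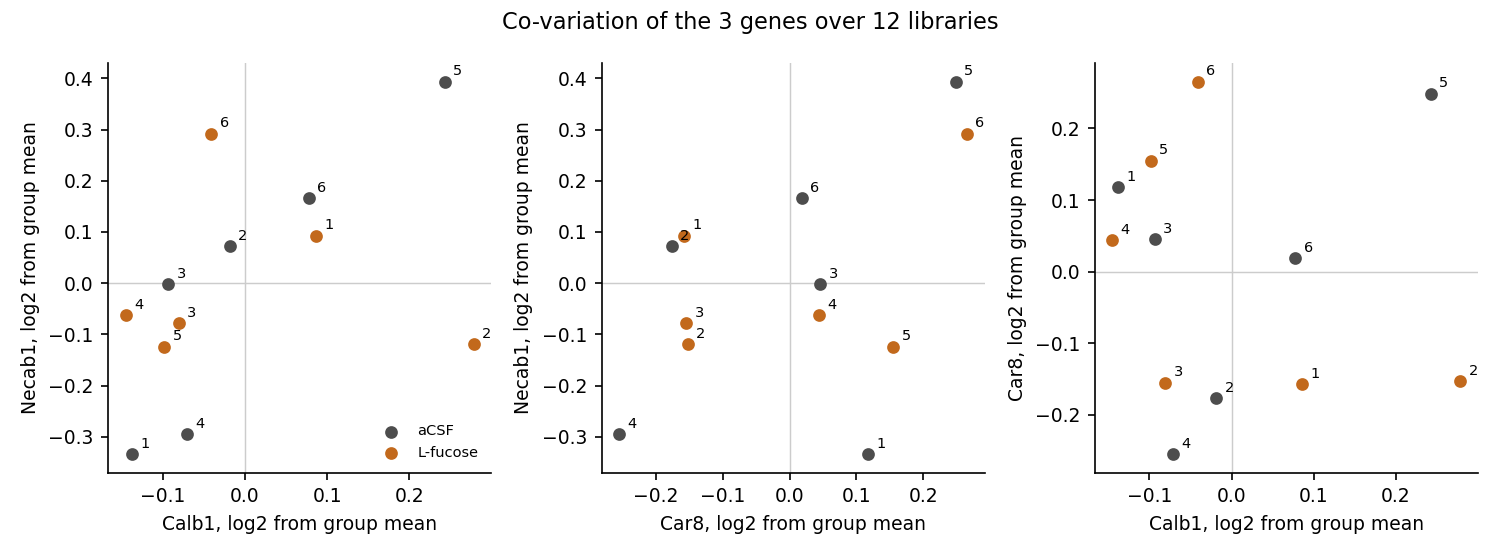
Each pair of the 3 genes over the 12 libraries, as the difference of log2 values from the mean of the group. Points are libraries numbered by replicate, grey for aCSF and orange for L-fucose; aCSF 5 lies at the upper right of every panel, and L-fucose 2 lies far right and below 0 for Calb1 against Necab1 and Calb1 against Car8.

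All rows of a library share its size factor and its tissue, so the same correlation was computed against every other tested row in register, 456 rows. The median r was 0.178 with Calb1, 0.0936 with Car8 and 0.168 with Necab1. Necab1 ranked 92nd of 456 with Calb1 and 41st with Car8, and Car8 ranked 330th with Calb1. These ranks describe the 12 libraries and carry no test.

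Rows with the pattern most like that of each gene were named by the same r over the 12 libraries. For Calb1 they were Lmbrd2, a multi-pass membrane protein (r 0.851, rho 0.860), Tmeff1, a transmembrane protein with follistatin-like domains (0.826, 0.762), and Asph (0.823, 0.888). Without aCSF 5 and 6 these r were 0.814, 0.681 and 0.806. The rows named for each gene were chosen by r over these same libraries, so such values are no separate check of the likeness. Asph was the sole one of the 9 named rows that is on the calcium list. Lmbrd2 had a mean of 2013 normalized reads, Tmeff1 2688 and Asph 2566.

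For Necab1 the most alike rows were Frrs1l, a component of AMPA receptor complexes (r 0.915, rho 0.881), Tmem68, an acyltransferase of lipid synthesis (0.897, 0.916), and Foxp2, a transcription factor of deep cortical layers, striatum and Purkinje cells (0.885, 0.930). Without aCSF 5 and 6 they had r of 0.846, 0.805 and 0.847. Foxp2 had 778 ± 180 normalized reads over the 12 libraries and a log2 fold change of 0.08 (interval -0.29 to 0.45), and its r with Calb1 and Car8 was lower, at 0.461 and 0.414. Frrs1l had a fold change of -0.05 (-0.22 to 0.11).

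For Car8 they were Dpy19l4, a member of a family of C-mannosyltransferases (r 0.774, rho 0.797), Wnt16, a Wnt ligand (0.710, 0.636), and Aass, the first enzyme of lysine breakdown (0.641, 0.643). These r were 0.790, 0.693 and 0.635 without aCSF 5 and 6. Wnt16 was near the floor of the tested rows, with a mean of 17.6 normalized reads, and its fold change of 0.99 had an interval from -0.17 to 2.16.

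Levels were also set against 3 measures of the libraries. Over the 12 libraries, with group means removed, the mitochondrial share of counted reads had an r of 0.801 with Necab1 (permutation p = 0.012, 0.0925 adjusted over 9 relations of the 3 genes with 3 library measures) and a rho of 0.776 (permutation p = 0.011, 0.0495 adjusted). Without the 2 libraries farthest from the median share, aCSF 5 and 6, this r was 0.714. Scaled to counted reads outside the mitochondrial genome it was 0.685, and scaled to all counted reads it was 0.239. Calb1 had an r of 0.537 with the share (permutation p = 0.0666, adjusted 0.15) and a rho of 0.692 (0.0104, adjusted 0.0495), which became an r of 0.225 without those libraries and -0.399 when scaled to all counted reads. Car8 had an r of 0.528 (permutation p = 0.0938, adjusted 0.169) and a rho of 0.294 (0.393, adjusted 0.442). Its r was 0.486 without those libraries and -0.276 when scaled to all counted reads. The total of counted reads contains the mitochondrial reads, so a lower r with the share on that scale is partly built in.

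**Figure D5:**
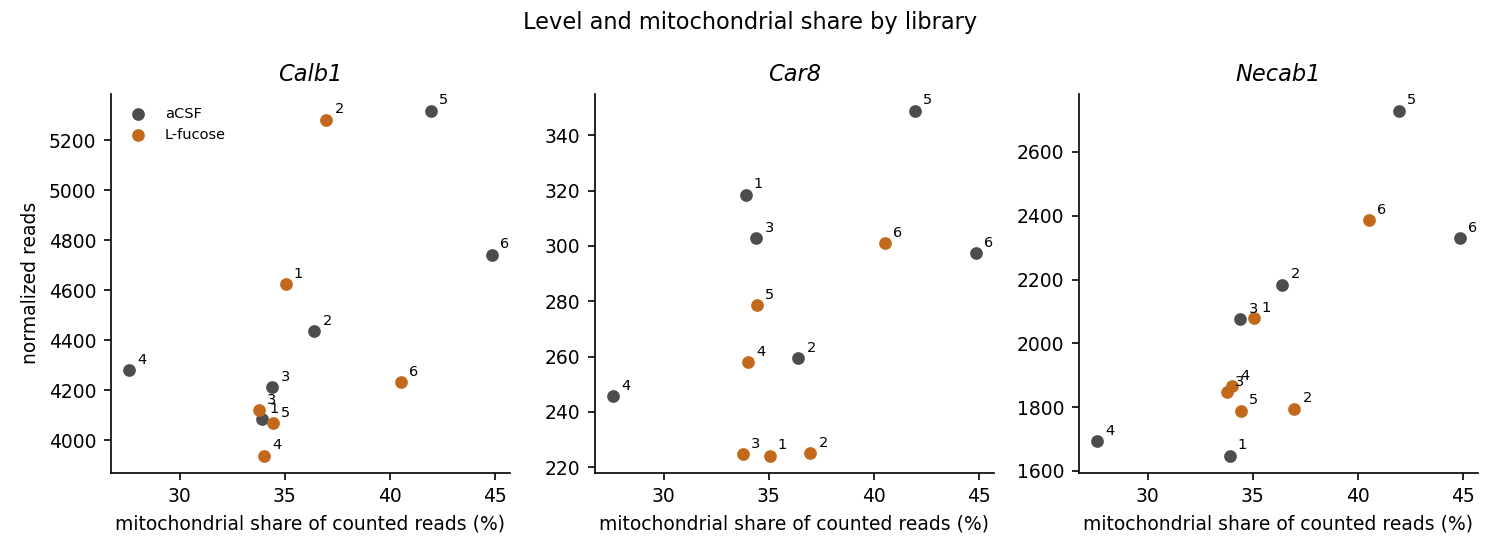
Normalized reads of each gene against the mitochondrial share of counted reads, in percent, with axes that do not start at 0. Points are libraries numbered by replicate, grey for aCSF and orange for L-fucose; Necab1 is highest in aCSF 5, L-fucose 6 and aCSF 6, the 3 libraries with shares above 40%.

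Calb1 also had an r of 0.693 with the total of counted reads (permutation p = 0.0205, adjusted 0.0925) and a rho of 0.587 (0.075, adjusted 0.169). This r was 0.471 without the 2 libraries farthest from the median total and 0.767 without aCSF 5 and 6. Car8 and Necab1 had r of 0.0509 and 0.247 with the total. With the number of detected rows, the r were -0.114 for Calb1, -0.474 for Car8 and -0.626 for Necab1 (permutation p = 0.726, 0.146 and 0.0551). Without aCSF 5 and 6 they were 0.834, -0.249 and -0.162. Whether depth, the mitochondrial share or the number of detected rows acted on the levels was not tested. The share itself was 36.5 ± 6.16% in aCSF and 35.8 ± 2.59% in L-fucose (SD, n = 6 each), with an exact permutation p of 0.768. With the share as a covariate in limma, the log2 fold changes were -0.03 for Calb1, -0.21 for Car8 and -0.06 for Necab1.

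Few markers of the cell types that make these proteins could be read. Of 10 Purkinje cell markers, 3 were in register, Calb1, Car8 and Foxp2, so other defining markers of these cells were not available to check that the sections held cerebellum. Of 10 interneuron markers, 3 were in register, Calb1 with Dlx5 and Dlx6, and their summed level ran from 4510 to 5777 in aCSF and from 4460 to 5817 in L-fucose, mostly Calb1. Of 7 dentate granule cell markers 4 were in register, Calb1 with Pdzd2, Sema5a and Cdh9. Their summed level, again mostly Calb1, ran from 6895 to 9232 in aCSF and from 6390 to 8125 in L-fucose. The 4 general neuronal markers in register, Basp1, Gabbr2, Ctnnd2 and Cnr1, summed to 40785 to 46152 in aCSF and 41059 to 45818 in L-fucose, and 0 of them were at 0. Of 4 astroglial markers 1 was in register, Ptprz1, a receptor phosphatase. It ran from 5176 to 7468 in aCSF and from 4603 to 5845 in L-fucose, with a log2 fold change of -0.30 (interval -0.49 to -0.11), and it did not pass limma after adjustment. Its r was 0.528 with Calb1, 0.468 with Car8 and 0.716 with Necab1, and its part in their levels was not tested. Of 7 markers of striatal projection neurons, which also make calbindin, 4 were in register (Penk, Tac1, Foxp2 and Calb1), 0 passed limma and 0 were at 0. Their summed level ran from 8752 to 16438 in aCSF and from 12240.0 to 19931 in L-fucose. Most of it was Penk, the enkephalin precursor, whose log2 fold change was 0.61 (interval 0.20 to 1.03, limma adjusted p 0.827). The part of the makeup of the sections in the level of Calb1 was not tested. Penk had an r of 0.507 with Calb1, 0.309 with Car8 and 0.490 with Necab1, given as a description over 12 libraries.

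The tested genes beside the 3 on the chromosome did not pass either. Tmem64 lies between Necab1 and Calb1 and had 1163 ± 129 normalized reads and a log2 fold change of -0.18 (interval -0.39 to 0.03). Tmem64 regulates a calcium pump of the endoplasmic reticulum in other tissues, but it was not on the list. Decr1, a mitochondrial enzyme of fatty acid oxidation that follows Calb1, had 750.2 ± 105 and -0.08 (-0.33 to 0.17). Tox, a nuclear regulator that precedes Car8, had 715 ± 150 and -0.08 (-0.39 to 0.23), and Rab2a, a GTPase of the early secretory pathway that follows it, had 11254.5 ± 1103 and -0.10 (-0.28 to 0.08). Gm11837, the antisense gene beside Necab1, was at 0.35 (-0.35 to 1.05).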

How the data were processed

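Libraries were made from poly(A) RNA of 12 brain section samples, 6 per group, per the labels' protocols. The submitters' processing notes list HISAT2 2.2.1, Trimmomatic 0.39, DESeq2 2.11.40.8, featureCounts 2.0.3 and the build mm10, which is GRCm38. The sources used here do not give the annotation release, strand setting or filters. A normalized signal, 1 value per identifier and library, is what the authors deposited. In each library each value was a whole number of equal steps, to within 0.01 of a step, so dividing by the step gave back the reads. An automatic test of such steps could not judge aCSF 4, whose step lies near 1. Of 56923 identifiers, 52073 matched GENCODE M21.

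limma 3.58.1 (R 4.3.3) was run on log2(value + 1) with group as sole term and an intensity trend, for rows that reached 10 in 6 or more libraries. Its p-values were adjusted over all tested rows by the Benjamini-Hochberg method, with a threshold of 0.05. A fold change compares L-fucose with aCSF, and the pseudocount makes it too small for low rows. edgeR 4.0.16, DESeq2 1.42.0 and limma-voom were run on recovered reads. Correlations used 100000 permutations within groups, or all permutations within 1 group. The limma code was tested on simulated data. The genes, lists and tests were chosen with earlier results of these data known, and the in-register rule was set after levels were known. Named genes were the 3 genes, tested list genes in register, the 3 most alike rows per gene (predicted models left out), the nearest tested neighbours, and markers in register.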

Additional observations from a re-analysis of the deposited data

Results flagged for a closer look

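Each of 49 measures (46 tested named genes, markers included, and 3 measures of the libraries) was examined in both groups, 98 groups of 6 libraries. In 7 of them 1 library lay far outside the other 5, where chance gives about 5%. None concerned Calb1, Car8 or Necab1. Calu had 3372 normalized reads in aCSF 6, and the remaining aCSF libraries had 2837 to 3036. Dpy19l4 had 659.5 in L-fucose 6, with the remaining libraries of its group at 540.4 to 573.8. Tox had 507.9 in L-fucose 4, below a range of 687.1 to 782.7. Rab2a had 11810 in L-fucose 1, above a range of 10440 to 10950. The markers were Cdh9 of dentate granule cells with 375.8 in aCSF 5 (remaining range 168.9 to 237.4), Ptprz1 of astroglia with 5845 in L-fucose 6 (4603 to 5025) and Ctnnd2 of neurons in general with 6673 in aCSF 1 (7624 to 8120).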

How the results depend on the processing

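Over 27 alternatives the log2 fold change of Car8 stayed negative, from -0.28 to -0.16 (adjusted p 0.684 to 0.999 over limma, edgeR and DESeq2). Calb1 ran from -0.10 to 0.03 (0.884 to 0.999) and Necab1 from -0.16 to 0.05 (0.831 to 0.999), and none passed. Without aCSF 5 and 6 the sign turned for Calb1 (0.0347), Necab1 (0.0482), Erp44 (0.0861), Tmem38b (0.0556), Cadps2 (0.00711), Frrs1l (0.0164), Tmem68 (0.0104) and Rab2a (0.00976), and limma rows at an unadjusted p under 0.05 numbered 1177 against 643. Calcr was 0.0453 in limma-voom. Dpy19l4 was -0.00164 in edgeR with TMM, -0.00289 with RLE, -0.00171 in DESeq2 and -0.0113 scaled to reads outside the mitochondrial genome. DESeq2, with 29080 rows, called 1 row, and the other tools called 0. Leaving out 1 library gave -0.101 to 0.00318 for Calb1 (positive without aCSF 5), -0.536 to 0.128 for Slc25a13, -0.1004 to 0.0354 for Tmem38b, -0.721 to 0.361 for Calcr, -0.0596 to 0.0898 for Dpy19l4, -0.0741 to 0.169 for Foxp2 and -0.161 to 0.0387 for Tox. It gave r of -0.427 to 0.186 for Calb1 and Car8, of 0.222 to 0.803 for Calb1 and Necab1 and of 0.26 (without aCSF 5) to 0.684 for Car8 and Necab1. Within aCSF these r were 0.479 and 0.895, and within L-fucose that of Calb1 and Necab1 was -0.0742. The cause of these changes was not tested. With the register tolerance at 500 bp, chosen after seeing the data, 12 of 12 calcium genes were negative (median -0.15). Same-numbered libraries of the groups had correlations of deviations from -0.168 to 0.17, and 1 of 6 was highest with its own number. These values cannot decide whether equal numbers mark the same mouse, since sections of one mouse may also differ. With the replicate number as a replicate block, limma gave -0.05 for Calb1, -0.23 for Car8 and -0.09 for Necab1, and 0 rows were called (585 at an unadjusted p under 0.05). Depth limits Car8 most, with 217 to 370 reads per library.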
